A study of Mus musculus with 5 samples.

Results

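The genes described here are 9 regulators of the step from G1 to S phase and of cardiomyocyte withdrawal from the cell cycle: the D-type cyclins Ccnd1, Ccnd2 and Ccnd3, their kinase partners Cdk4 and Cdk6, the CDK inhibitors Cdkn1a (p21) and Cdkn1b (p27), the retinoblastoma gene Rb1 and the homeobox gene Meis1. They were taken by symbol from the 5 expression tables, and all 9 were among the 13711 genes present in every table. Visium, an array of barcoded capture spots that each take up the polyadenylated RNA of several cells, was run on transverse heart sections of wild-type C57BL/6 mice. Sham surgery, or myocardial infarction (MI) by ligation of the left anterior descending artery, was done on postnatal day 1, and no animal carried a transgene or a deletion. The sham group at day 3 after surgery, the MI group at day 3 and the sham group at day 7 had 1 section each, and the MI group at day 7 had 2, called MI day 7 replicates 1 and 2. Runs of 5 values below keep this order of sections. The pair of MI day 7 sections came from separate animals, since they differ in sex by their Xist and Ddx3y transcripts.

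Progress through G1 depends on D-type cyclins, which bind CDK4 or CDK6, and the active kinases phosphorylate the retinoblastoma protein. Phosphorylated RB releases E2F transcription factors, which switch on the genes of DNA replication. Cdkn1a and Cdkn1b encode inhibitors of cyclin-dependent kinases. Mouse cardiomyocytes divide around birth and largely leave the cell cycle in the first days of life, and MEIS1 is a transcription factor known to promote that exit and to activate CDK inhibitor genes.

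The sections held 376 to 960 spots with medians of 20842.5 to 53940 unique molecular identifiers (UMIs) per spot. Levels are mean CPM, the counts of a gene scaled to the same total in each spot over the shared genes and averaged over the spots of a section. The sham day 3 table held raw UMIs and the other 4 tables held values corrected for depth by the authors. The cardiomyocyte genes Myh6, Tnnt2 and Actc1 lay between 4749 CPM (Tnnt2) and 11222 CPM (Actc1) in all sections, as the heart label requires. The mitochondrial share was 24.7% in replicate 1 of MI day 7 and 13.8% to 15.8% elsewhere. Transcripts of the 6 immune marker genes summed to 869 CPM in the MI day 3 section, to 87.0 and 94.0 CPM in the sham sections and to 146 and 227 CPM in the MI day 7 sections. Xist without Ddx3y was expressed in sham day 3 and in replicate 1 of MI day 7, and the reverse held in the other 3 sections, so that each day held both sexes. The sexes were not balanced over the operations: at day 3 the sham section was female and the MI section male, and the lone sham section of day 7 was male. In a spot, fewer cells of a type and less RNA per cell cannot be told apart.

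The promoters of Cdk4 and Cdk6, the kinase partners of the D-type cyclins, are printed with matches to the E-box CACGTG. Both genes were lower in every day 7 section than at day 3, as were 38.9% of all genes tested. The product of Myc, a G1 gene described later, binds CACGTG, and its part in these levels was not tested. Each sequence runs from 250 bases before to 50 bases after a RefSeq transcription start, 5′ to 3′, in GRCm38.p6, with matches to CACGTG in capitals. The Cdk4 promoter lies on the plus strand at chr10:127063285-127063584 and the Cdk6 promoter on the plus strand at chr5:3343643-3343942.
Cdk4: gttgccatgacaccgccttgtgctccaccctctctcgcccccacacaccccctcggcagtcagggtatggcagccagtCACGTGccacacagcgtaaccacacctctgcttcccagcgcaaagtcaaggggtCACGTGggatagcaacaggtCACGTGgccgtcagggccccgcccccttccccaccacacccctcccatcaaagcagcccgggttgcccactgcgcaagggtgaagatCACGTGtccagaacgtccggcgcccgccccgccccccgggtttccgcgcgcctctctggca
Cdk6: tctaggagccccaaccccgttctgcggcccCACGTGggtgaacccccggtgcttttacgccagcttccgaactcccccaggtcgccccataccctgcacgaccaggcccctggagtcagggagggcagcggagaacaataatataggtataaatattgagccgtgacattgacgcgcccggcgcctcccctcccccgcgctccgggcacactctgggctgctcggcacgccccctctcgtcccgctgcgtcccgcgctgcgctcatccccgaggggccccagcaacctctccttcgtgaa
The Cdk4 window held 4 CACGTG matches and the Cdk6 window 1. Of 32851 mouse promoters of the same length, 7.15% held at least 1 match and 8 held 4 or more. Promoter sequences were at hand for 6 of the 9 genes, 8 windows in all, and the windows of Ccnd3, Cdkn1a, Cdkn1b and Meis1 had no CACGTG. The E2F motifs TTTCCCGC, TTTGGCGC, TTTGCCGC and TTTCGCGC, searched on both strands, were in 2.26% of all promoters and in none of the 8 windows. A match is a run of letters and not a measured binding site.

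The 9 genes are protein coding in GENCODE M21 on GRCm38. Ccnd1 lies on chromosome 7 (144929931 to 144939925, minus strand), Ccnd2 on chromosome 6 (127125162 to 127152193, minus) and Ccnd3 on chromosome 17 (47505051 to 47599691, plus). Cdk4 lies on chromosome 10 (127063534 to 127067920, plus) and Cdk6 on chromosome 5 (3341485 to 3531008, plus). Cdkn1a (chromosome 17, 29090976 to 29100727) and Cdkn1b (chromosome 6, 134920401 to 134925513) are on plus strands, and Rb1 (chromosome 14, 73183673 to 73325822) and Meis1 (chromosome 11, 18879817 to 19018985) on minus strands. Every gene except Cdkn1b overlaps another annotated gene. Among them, Cdk4 overlaps the end of Tspan31 and Ccnd3 that of Bysl, both on the opposite strand, and whether counting used strand is not given in the sources used here. The only raw counts, those of sham day 3, ran from 175 UMIs of Rb1 (exact 95% Poisson interval 150 to 203) to 2003 UMIs of Cdk4 (1916 to 2093), intervals that cover counting error only.

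The first comparison asked how the genes differed between day 3 and day 7, with the operation as a covariate. All the genes but Ccnd1 were higher in both day 3 sections than in all 3 day 7 sections. The same was true of 38.9% of the 12933 genes tested and the reverse of 5.79%, and the median gene was lower at day 7 by −0.18 on the log2(CPM + 1) scale, the scale of all differences below. None of the 9 passed the threshold of 0.05 on the adjusted p of limma with Benjamini-Hochberg adjustment over all genes, and 6 had an unadjusted p under 0.05. Across all genes limma called 0.247% higher and 0.348% lower at day 7, and 431 and 2810 genes had an unadjusted p under 0.05. The median difference of the 9 genes was −0.35, and −0.16 under median-of-ratios scaling, which moves the median gene to −0.01. With the sex of the animals as a further covariate, 5 of them passed, all lower at day 7 (Ccnd3, Cdk4, Cdk6, Cdkn1a and Cdkn1b, limma adjusted p 0.00587 to 0.0481). That fit leaves 1 residual degree of freedom and calls 2280 genes in all.

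Of the cyclins, Ccnd3 was at 157 CPM (sham) and 137 CPM (MI) at day 3, and at 115 CPM (sham) and 108 and 118 CPM (MI) at day 7. Its day 7 minus day 3 difference was −0.35 (SE 0.12, limma adjusted p 0.145). Ccnd2 was at 99.3 and 96.5 CPM at day 3 and at 80.0, 96.0 and 89.6 CPM at day 7, a difference of −0.16 (SE 0.12, limma adjusted p 0.399). When single sections were left out, the Ccnd2 difference ran from −0.31 to −0.057. The day 3 and day 7 sections of Ccnd2 were separated only by the narrow gap between the MI day 3 section and MI day 7 replicate 1, and under median-of-ratios scaling its difference turned to 0.02, while that of Ccnd3 was −0.16. Ccnd1 showed no separation by day, at 59.1 CPM (sham) and 54.4 CPM (MI) at day 3 and at 65.5 CPM (sham) and 50.2 and 49.98 CPM (MI) at day 7. Its difference was 0.00 (SE 0.12, limma adjusted p 0.986) and 0.18 under median-of-ratios scaling.

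The mean CPM of the D-type cyclins can also be read as a mix, the share of each in their sum within a section. Capture differs between transcripts, so only the change of a share between sections is described. Ccnd1 made up 25.1% of the summed D-cyclin level in the sham day 7 section and 18.7% to 19.8% in the other 4. Ccnd3 made up 49.8% and 47.7% at day 3 and 42.4% to 45.9% at day 7. Ccnd2 was between 30.7% and 37.8%, highest in MI day 7 replicate 1.

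Neither kinase gene passed between the days, and both had differences below 0. Cdk4 was at 178 CPM (sham) and 165 CPM (MI) at day 3 and at 125 CPM (sham) and 111 and 135 CPM (MI) at day 7. Its difference was −0.46 (SE 0.13, limma adjusted p 0.122), and −0.27 under median-of-ratios scaling. Cdk6 was at 27.2 and 27.1 CPM at day 3 and at 18.0, 19.1 and 18.5 CPM at day 7, so that sections of the same day lay close together whatever the operation. The Cdk6 difference was −0.53 (SE 0.12, limma adjusted p 0.0972), and −0.35 under median-of-ratios scaling.

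The genes of the CDK inhibitors also had differences below 0, at −0.37 (Cdkn1b) and −0.48 (Cdkn1a) under median-of-ratios scaling. Cdkn1b was at 31.3 and 31.4 CPM at day 3 and at 21.1, 22.6 and 19.6 CPM at day 7, a difference of −0.55 (SE 0.13, limma adjusted p 0.0990). Cdkn1a was at 29.0 CPM (sham) and 40.6 CPM (MI) at day 3 and at 22.4 CPM (sham) and 17.5 and 26.3 CPM (MI) at day 7, a difference of −0.66 (SE 0.21, limma adjusted p 0.139). The Cdkn1a difference lay between −0.89 and −0.36 when single sections were left out, and it passed without either sham section (−0.89, limma adjusted p 0.0403 without sham day 3 and 0.0381 without sham day 7), where the day contrast rests on the MI sections. On the log2 scale Cdkn1a had the widest spread of the 9 genes between the sections of a day.

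Rb1, the substrate of the cyclin D kinases, was at 15.3 and 15.6 CPM at day 3 and 13.2, 13.3 and 14.03 CPM at day 7, with a UMI or corrected count in 24.4% to 49.4% of spots. Its difference was −0.19 (SE 0.13, limma adjusted p 0.365), close to the median gene, and −0.01 under median-of-ratios scaling. Meis1 was at 32.2 and 26.6 CPM at day 3 and at 23.6, 22.0 and 21.8 CPM at day 7, a difference of −0.34 (SE 0.12, limma adjusted p 0.159), and −0.16 under median-of-ratios scaling. The gene that is known to promote cell cycle exit was therefore not higher in any day 7 section than in the day 3 sections.

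**Figure D1:**
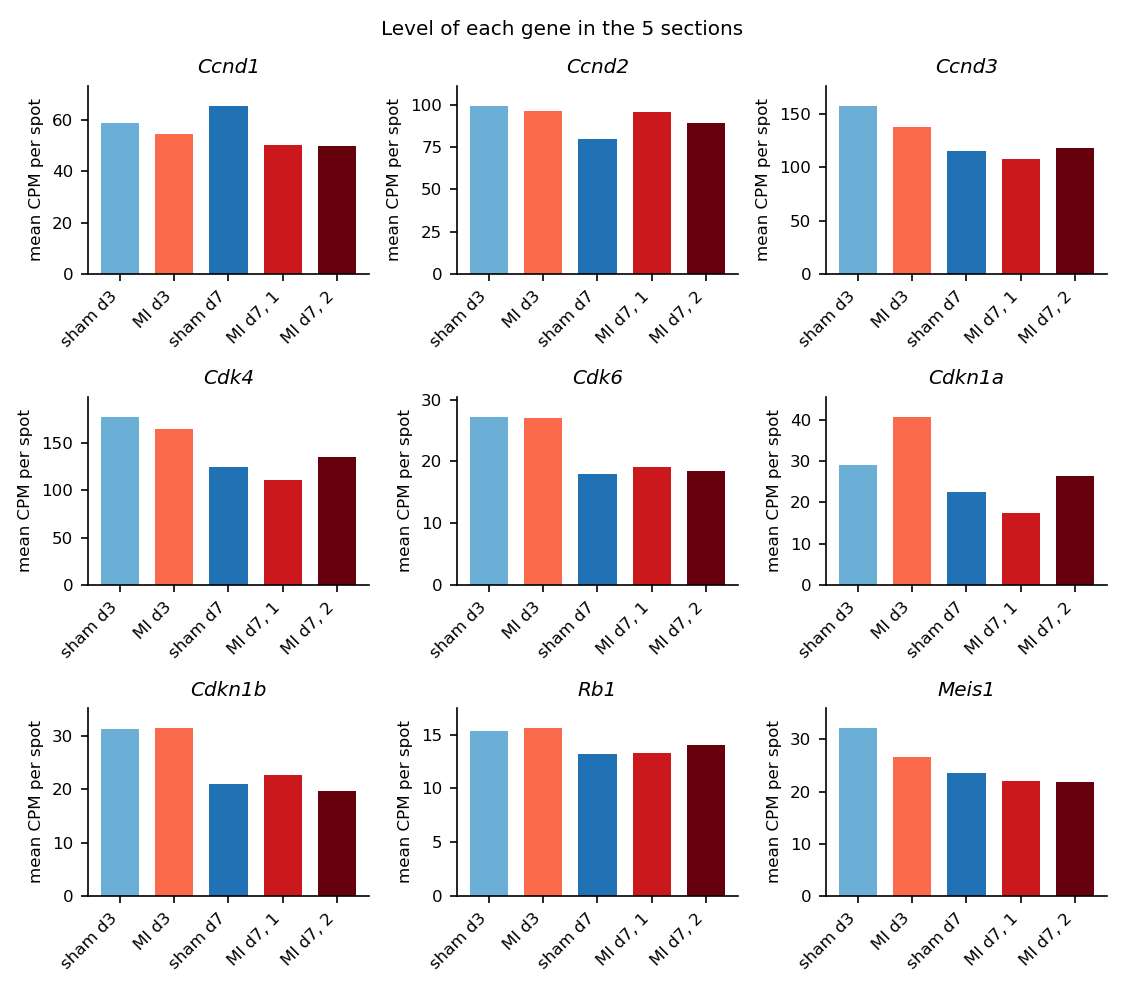
Mean CPM per spot (vertical axis, from 0) of each of the 9 genes in the 5 sections, 1 bar per section, with sham in blue and MI in red. The day 3 bars of Cdk4, Cdk6 and Cdkn1b all stand above their day 7 bars (Cdk6 27.2 and 27.1 against 18.0, 19.1 and 18.5 CPM), while Ccnd1 is highest in the sham day 7 section (65.5 CPM).

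For context, 4 lists of related genes were read in the same fit. Over all 12933 genes of that fit the median was −0.18, with 2810 genes below 0 and 431 above it at an unadjusted p under 0.05. Limma called 0.348% of them lower and 0.247% higher. The lists were not read under median-of-ratios scaling, which moves the median gene to −0.01. Of 28 G1 and S phase genes tested, 26 were below 0 and 2 above, with a median of −0.42, and 1 passed, Cdk2, the kinase that cyclin E activates. Cdk2 was at 53.1 and 42.3 CPM at day 3 and at 29.3, 23.0 and 25.4 CPM at day 7 and fell by 0.81 (limma adjusted p 0.0465). The next smallest p values in that list were those of Myc (a growth-promoting transcription factor), at 9.94 and 11.1 CPM at day 3 and 5.40, 3.97 and 5.41 CPM at day 7 (−0.96, limma adjusted p 0.0742), Rbl1 (the RB relative p107, −0.68, limma adjusted p 0.0947) and E2f8 (−0.76, limma adjusted p 0.105). In the list as a whole 17 genes had an unadjusted p under 0.05.

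All 9 tested genes of the MEIS family and its partners were below 0, with a median of −0.42, 5 at an unadjusted p under 0.05 and 0 past the threshold in limma. Its lowest p values were in Tgif2 (−0.66, limma adjusted p 0.0982), Tgif1 (−0.67, 0.138), Pbx2 (−0.42, 0.139) and Pbx3 (−0.51, 0.141). TGIF proteins are homeodomain repressors and PBX proteins bind DNA together with MEIS1. Of 15 p53 response genes, which include other targets of the factor that induces Cdkn1a, 9 were below and 6 above 0, with a median of −0.14, 3 at an unadjusted p under 0.05 and 0 past the threshold in limma. Trp53 itself was at −0.48 (limma adjusted p 0.116) and its targets Ccng1, Trp53inp1 and Zmat3 at 0.38, −0.44 and −0.40 (limma adjusted p 0.144, 0.147 and 0.202). All 15 S phase and mitosis genes were below 0, with a median of −0.71, 14 at an unadjusted p under 0.05 and 0 past the threshold in limma. Its lowest p values were in the replication genes Mcm3 (−0.91, limma adjusted p 0.0742), Mcm6 (−0.80, 0.0809) and Pcna (−0.58, 0.0947) and in cyclin A2, Ccna2 (−0.84, 0.0995). Mki67, a marker of cycling cells, was at 66.1 and 73.4 CPM at day 3 and 55.7, 30.8 and 47.6 CPM at day 7 (−0.63, limma adjusted p 0.161).

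**Figure D2:**
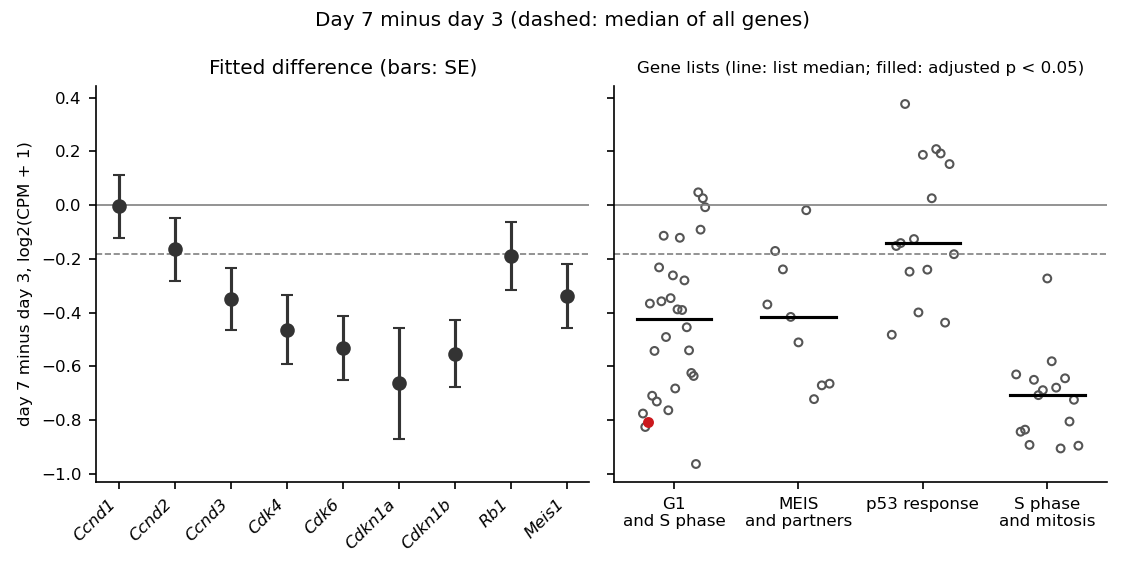
Day 7 minus day 3 on the log2(CPM + 1) scale (vertical axis) for the 9 genes (left, points with SE bars, 5 sections) and for the genes of the 4 lists (right, 1 point per gene, line at the list median, filled where the limma adjusted p is under 0.05); the dashed line is the median of all genes, −0.18. Ccnd1 sits at 0.00 and the others below 0, and the S phase and mitosis list lies lowest, at a median of −0.71.

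MI was then compared with sham, to ask whether the injury changed the levels of these genes. Across both days, with day as a covariate, none of the 9 passed in limma and none had an unadjusted p under 0.05, where limma called 0.00773% of all genes higher and 0% lower, with 692 and 356 at an unadjusted p under 0.05. The median difference of the 9 genes was 0.00. Ccnd1 was lower in all 3 MI sections than in both sham sections, the only one of the 9 genes with that separation, which 9.6% of all genes also showed. None of the 9 was higher in all 3 MI sections, as 6.84% of all genes were. Its sham levels were 59.1 and 65.5 CPM and its MI levels 54.4, 50.2 and 49.98 CPM, a difference of −0.27 (SE 0.12, limma adjusted p 0.645). The difference was −0.12 without sham day 7, which leaves the single pair of day 3 sections, and without either day 3 section it was −0.38. In CM1-dominant spots alone (defined below) it was −0.37 (limma adjusted p 0.573).

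At day 7 the 2 MI sections were set against 1 sham section, with 1 residual degree of freedom from the MI pair. None of the 9 genes passed in limma and none had an unadjusted p under 0.05, where 0.186% of all genes were called higher and 0.0464% lower. The values were closest for Cdkn1b (21.1 CPM in sham and 21.1 ± 2.10 CPM, SD, n = 2, in MI) and farthest apart for Ccnd1 (65.5 CPM and 50.1 ± 0.170 CPM, SD, n = 2). Ccnd2 was at 80.0 CPM in sham and at 92.8 ± 4.53 CPM (SD, n = 2) in MI. On the log2 scale the MI pair differed most in Cdkn1a, at 21.9 ± 6.19 CPM (SD, n = 2) against 22.4 CPM in sham. These tests take the lone sham section to vary as the MI pair does.

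At day 3, with 1 section per group and no test, none of the 9 genes differed by 1.5-fold, a size that 8.64% of all genes reached upward and 2.62% downward. The farthest was Cdkn1a, a target of p53, at 29.0 CPM (sham) and 40.6 CPM (MI), 0.47 on the log2 scale. Immune markers moved the same way between these sections (87.0 and 869 CPM), and their part in the Cdkn1a value was not tested. The sham section was female and the MI section male, so operation and sex cannot be told apart in any day 3 value. Next came Meis1 at −0.27 and Ccnd3 at −0.19, and the other 6 genes lay between −0.12 and 0.02. In CM1-dominant spots alone Meis1 was at −0.40 and Cdk6, at 0.00 over all spots, at 0.38. In the same spots Cdkn1a was at 28.7 CPM (sham) and 36.9 CPM (MI), and Ccnd3 at 143 CPM (sham) and 139 CPM (MI). Whether the MI difference itself changed between the days was tested as an interaction, with 1 residual degree of freedom. None of the 9 passed in limma or had an unadjusted p under 0.05, where 0.0619% of all genes were called higher and 0.363% lower. Cdkn1a had the largest interaction value of the 9, −0.53 (SE 0.37, limma adjusted p 1.00).

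The spots were next divided by their cell type scores, to ask in which tissue regions the genes are higher. Each spot carries 11 deposited scores, which come from label transfer from single-nucleus RNA-seq data, for the cardiomyocyte states CM1 to CM5 and for fibroblast (FB), endothelial (EC), endocardial (EndoEC), epicardial, macrophage and mural cells. A spot is called by its highest score, so that an FB-dominant spot still holds cardiomyocytes: summed cardiomyocyte markers in FB-dominant spots ran from 25949 to 38958 CPM, against 38293 to 45204 CPM in CM1-dominant spots. CM1 is the most frequent class, and CM4 is the cardiomyocyte state of interest in this regeneration model. Profiles of the 2 classes compared were taken from the same sections, with the section as a block, where each had at least 20 spots. The scores were computed from the expression of the same spots, so these comparisons are not independent of the values that made the classes.

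In EndoEC-dominant spots (32 to 48 spots per section) Cdk4 and Ccnd3 were higher and Ccnd1 was lower than in CM1-dominant spots. Of the 9 genes 2 were called higher and 1 lower in limma, where 9.63% of all genes were higher and 2.51% lower. Endocardial markers summed to 277 to 512 CPM in these spots and to 59.6 to 85.6 CPM in CM1-dominant spots, and endothelial markers were lower, at 1499.5 to 2249 CPM against 2164 to 2756 CPM. Fibroblast markers were also higher there, at 5614 to 8440 CPM against 2625 to 4007 CPM, and blood markers ran from 5106 to 30141 CPM against 3837 to 11048 CPM, and their part in the differences was not tested. Ccnd1 was at 36.6, 37.9, 41.7, 45.9 and 33.6 CPM in the EndoEC-dominant spots. In the CM1-dominant spots of the same sections it was at 61.6, 54.8, 67.3, 45.2 and 47.8 CPM. It was lower in 4 of 5 sections, with MI day 7 replicate 1 the exception, and fell by 0.48 (SE 0.11, limma adjusted p 0.00269).

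Cdk4 was at 217, 239, 137, 131 and 140 CPM in EndoEC-dominant spots, in the same order of sections, and at 171, 152, 114, 95.4 and 116 CPM in CM1-dominant spots. It was higher in 5 of 5 sections, by 0.40 (SE 0.08, limma adjusted p 0.000397). Ccnd3 was at 196, 157, 133, 131 and 122 CPM against 143, 139, 110, 96.3 and 109 CPM, also higher in 5 of 5 sections, by 0.30 (SE 0.08, limma adjusted p 0.00780). The Ccnd1 and Cdk4 calls held in all 14 alternatives. The Ccnd3 call was lost without sham day 3 (0.26, limma adjusted p 0.0752), without MI day 7 replicate 1 (0.26, 0.0560) and under median-of-ratios scaling (0.17, 0.184). Ccnd2 was also higher in 5 of 5 sections, by 0.20, and did not pass (SE 0.08, limma adjusted p 0.122). Within the D-cyclin mix, Ccnd1 thus took 10.8% to 16.6% in EndoEC-dominant spots and 19.2% to 26.5% in CM1-dominant spots.

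In FB-dominant spots (22 to 266 spots per section, fibroblast markers 6591 to 18337 CPM) 3 of the 9 genes were called higher than in CM1-dominant spots and 0 lower in limma, where 23.5% of all genes were higher and 3.42% lower. The median of the 9 genes was 0.24 and that of all genes 0.18. Cdk4 was at 185, 180, 141, 135 and 186 CPM in FB-dominant spots of the sections in the order above, higher than in CM1-dominant spots in 5 of 5, by 0.37 (SE 0.09, limma adjusted p 0.00562). Ccnd2 was at 110, 122, 78.9, 106 and 111 CPM against 94.0, 92.7, 76.2, 89.2 and 83.4 CPM, higher in 5 of 5, by 0.26 (SE 0.08, limma adjusted p 0.0238). Ccnd3 was higher in 5 of 5 by 0.25 (SE 0.08, limma adjusted p 0.0257).

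The calls in FB-dominant spots depended on scaling. Under median-of-ratios scaling, where the median of all genes was −0.02, none of the 3 passed (0.15, 0.05 and 0.04 for Cdk4, Ccnd2 and Ccnd3, limma adjusted p 0.212, 0.699 and 0.772), and without mitochondrial and haemoglobin genes only Cdk4 did (0.25, limma adjusted p 0.0411). The Ccnd2 call was also lost among spots with a highest score of at least 0.5 (0.24, limma adjusted p 0.0550). Leaving out sham day 3, MI day 7 replicate 1 or MI day 7 replicate 2 also left Cdk4 alone past the threshold. Cdkn1b differed by 0.25 (SE 0.12, limma adjusted p 0.127), and by 0.14 to 0.32 when single sections were left out. Ccnd1, Cdk6, Cdkn1a, Cdkn1b, Rb1 and Meis1 were on both sides of 0 over the sections.

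In EC-dominant spots (22 to 80 spots per section), none of the 9 genes passed in limma, where 2.29% of all genes were called higher and 0.112% lower, and 6 of the 9 had an unadjusted p under 0.05, as did 1856 genes above 0 and 237 below it of 13338. That number was 2 of the 9 under median-of-ratios scaling and 3 without mitochondrial and haemoglobin genes. Cdk4, Ccnd2 and Cdkn1a were higher than in CM1-dominant spots in 5 of 5 sections. Cdk4 was at 190, 157, 126, 122 and 145 CPM, a difference of 0.20 (SE 0.07, limma adjusted p 0.139). Cdkn1a was at 36.4, 47.4, 23.8, 19.5 and 30.6 CPM against 28.7, 36.9, 21.1, 15.8 and 23.7 CPM, a difference of 0.30 (SE 0.12, limma adjusted p 0.212).

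Cdkn1b was lower in EC-dominant spots in 5 of 5 sections, at 22.7, 28.1, 20.2, 20.4 and 10.7 CPM against 33.4, 30.5, 21.1, 22.5 and 18.3 CPM, a difference of −0.31 (SE 0.14, limma adjusted p 0.281). Both p21 and p27 are CDK inhibitors, and their genes lay on opposite sides of 0 here. Ccnd1 was at 70.5, 46.2, 100.2, 55.5 and 69.0 CPM, higher in 4 of 5 sections, by 0.27 (SE 0.10, limma adjusted p 0.199). Without the MI day 3 section, the exception, it passed (0.39, limma adjusted p 0.0484). Rb1 differed by 0.46 (SE 0.18, limma adjusted p 0.202), from 1.19 in sham day 3 to −0.23 in MI day 7 replicate 2, and Ccnd3 by 0.18 (SE 0.08, limma adjusted p 0.272). Ccnd3 was below 0 in the MI day 3 section (−0.18). Its fitted difference ran from 0.096 to 0.27 when single sections were left out. Macrophage-dominant spots could be compared in 4 sections (20 to 70 spots), and none of the 9 genes passed in limma or had an unadjusted p under 0.05, where 0.0682% of all genes were called higher and 0% lower. Cdk4 was higher there in 4 of 4 sections (0.25, SE 0.12, limma adjusted p 0.502).

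CM4-dominant spots (40 to 86 per section) did not differ from CM1-dominant spots beyond the spread of the sections in any of the 9 genes. None passed in limma and none had an unadjusted p under 0.05, where 1.09% of all genes were called higher and 0.0602% lower, and their median was 0.02 against 0.06 for all genes. Fitted differences ran from −0.14 (Cdkn1b) to 0.20 (Cdkn1a). Without sham day 3 the median was 0.15, and Cdkn1a (0.39, limma adjusted p 0.165) and Cdk4 (0.21, 0.290) had an unadjusted p under 0.05. Cdkn1a was at −0.57 in sham day 3 and at 0.10 to 0.65 in the other 4 sections. Meis1 was at 33.4, 25.3, 20.1, 21.6 and 19.1 CPM in CM4-dominant spots, in the order of sections above, and at 34.6, 26.0, 23.6, 20.8 and 22.0 CPM in CM1-dominant spots. For Ccnd1 the sham and the MI sections lay on different sides of 0. Ccnd1 was lower in CM4-dominant than in CM1-dominant spots in both sham sections (−0.23 at day 3 and −0.15 at day 7). In the MI sections it was higher, by 0.16 at day 3 and by 0.27 and 0.47 at day 7.

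The test of that difference between operations, with day as a covariate, gave 0.47 for Ccnd1 (SE 0.19, limma adjusted p 0.303) and 0.37 for Cdk4 (SE 0.19, limma adjusted p 0.353), for which the sham sections gave −0.34 and 0.03 and the MI sections 0.12, 0.38 and 0.31. Of the 9 genes none passed in limma and none had an unadjusted p under 0.05. All 9 were above 0, with a median of 0.30, and so was the median of all genes, at 0.28. No gene of the whole table was called (0% in both directions), while 2117 genes above 0 and 154 below it had an unadjusted p under 0.05. Fibroblast markers were also higher in CM4-dominant than in CM1-dominant spots in every section (4161 to 8171 CPM against 2625 to 4007 CPM), and their part in these values was not tested.

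**Figure D3:**
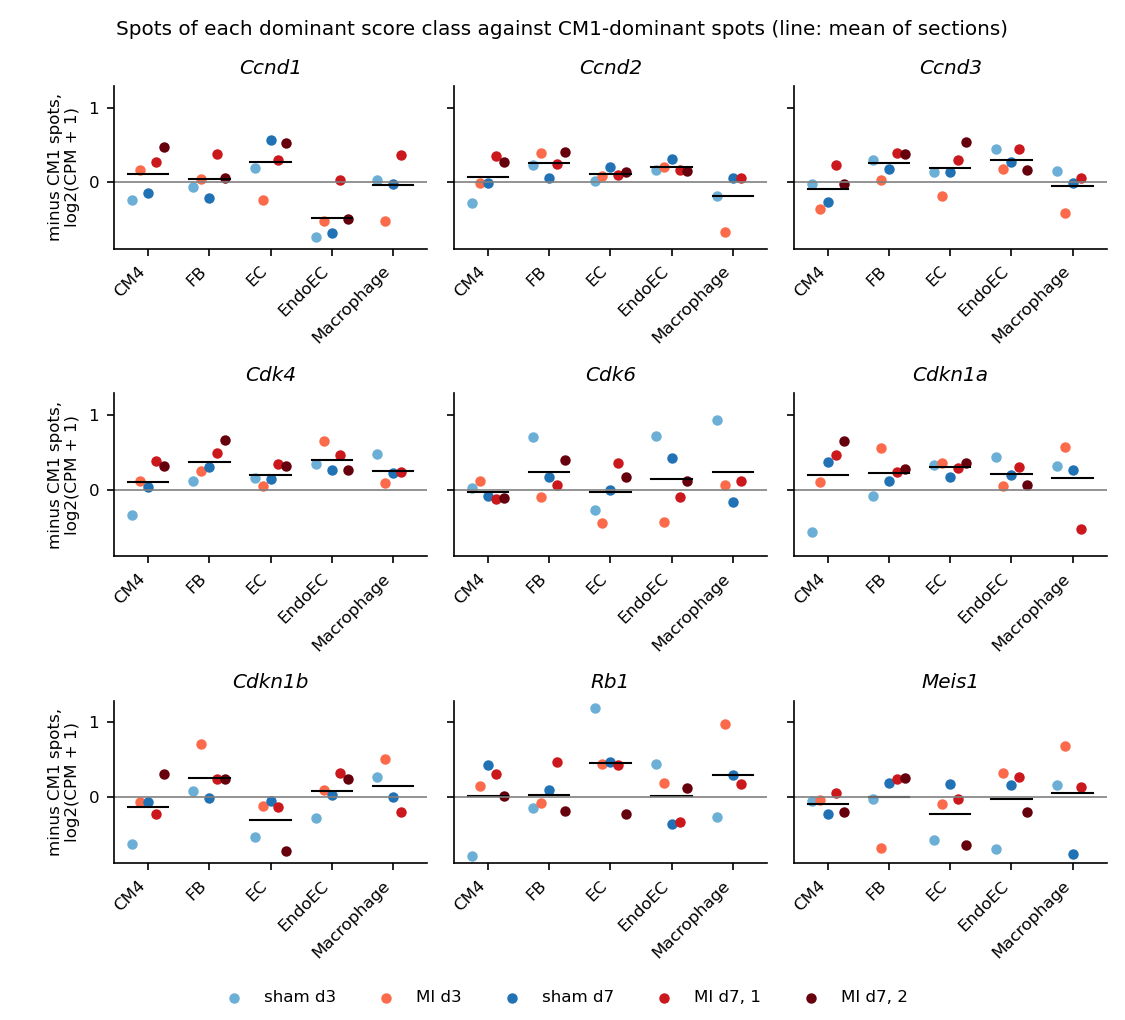
Difference between spots of 5 dominant score classes and CM1-dominant spots on the log2(CPM + 1) scale (vertical axis) for each gene, 1 point per section (sham in blue, MI in red) and a line at the mean of the sections. Ccnd1 lies below 0 in EndoEC-dominant spots in 4 of 5 sections, Cdk4 above 0 in FB-, EC- and EndoEC-dominant spots in 5 of 5, and the CM4 points of Ccnd1 fall below 0 in sham and above 0 in MI.

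The 4 lists gave counts of the same kind between classes. In EC-dominant spots, where 2.29% of all genes were called higher and the median of all genes was 0.09, all 15 S phase and mitosis genes were above 0 (list median 0.33) and 3 passed in limma, namely Mki67 (0.54, limma adjusted p 0.00201), Cdk1 (0.52, 0.00312) and Top2a (0.44, 0.0141), while 0 genes of the other lists did (6, 0 and 4 of the G1, MEIS and p53 lists at an unadjusted p under 0.05). In FB-dominant spots, where 23.5% of all genes were called higher and the median of all genes was 0.18, 6 of the 15 passed upward (list median 0.18), from Pcna (0.25, limma adjusted p 0.0219) to Tyms (0.46, 0.0216). The G1 list had 1 higher there, Cdkn1c (the CDK inhibitor p57, 0.56, limma adjusted p 0.00590), and 1 lower, Mycn (−0.49, 0.0438). The medians of the G1, MEIS and p53 lists were 0.16, 0.16 and 0.22. The MEIS list had 4 higher of 9, Pknox2 (1.251, limma adjusted p 0.00507), Meis3 (0.92, 0.0118), Tgif1 (0.83, 0.00840) and Tgif2 (0.47, 0.0298). The p53 list had 5 higher of 15, Zmat3 (0.82, limma adjusted p 0.00161), Phlda3 (0.76, 0.000305), Trp53inp1 (0.67, 0.00383), Bax (0.44, 0.00397) and Plk2 (0.42, 0.00411). In EndoEC-dominant spots, where 9.63% of all genes were called higher, 1 of 10 MEIS and 2 of 15 p53 genes passed upward. They were Pknox2 (1.23, limma adjusted p 0.00492), Phlda3 (0.50, 0.00507) and Plk2 (0.47, 0.00177), and no gene of the G1 or S phase lists passed (4 of 29 and 5 of 15 at an unadjusted p under 0.05). Such a p was held by 2358 genes above 0 and 822 below it of all 13328. The genes named in this paragraph were chosen after their values were seen.

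In CM4-dominant spots no gene of the 4 lists passed in limma, with 3, 1, 1 and 5 of the G1, MEIS, p53 and S phase lists at an unadjusted p under 0.05, as were 1220 genes above 0 and 319 below it of 13285. All 15 S phase and mitosis genes were above 0 (median 0.25), led by Top2a (0.41, limma adjusted p 0.119), Cdk1 (0.39, 0.169), Mki67 (0.35, 0.229) and Ccnb2 (0.37, 0.329). Of the G1 list 23 of 29 were above 0 (median 0.13), led by E2f4 (0.36, limma adjusted p 0.191), the inhibitor Cdkn2c (0.37, 0.224), Cks2 (0.30, 0.252) and E2f3 (0.37, 0.448). The MEIS list (8 of 9 above 0, median 0.15) included Tgif1 (0.49, limma adjusted p 0.389), Pknox2 (0.50, 0.504) and Meis3 (0.35, 0.622), and the p53 list (12 of 15, median 0.11) was led by Phlda3 (0.35, limma adjusted p 0.252), Zmat3 (0.39, 0.489), Sesn1 (0.20, 0.519) and Gadd45a (−0.27, 0.606). Between MI and sham, across days or at day 7, and in Macrophage-dominant spots, no gene of the 4 lists passed in limma, with 0 to 4 per list at an unadjusted p under 0.05. Of the S phase and mitosis genes 15 of 15 were below 0 in MI against sham at day 7 (median −0.40, all genes −0.04) and 14 of 15 across days (median −0.33, all genes −0.01). Of the 28 G1 genes 25 were below 0 in both comparisons (medians −0.20 and −0.13). The MI day 7 sections were not alike in these genes: replicate 1, the section with 24.7% mitochondrial transcripts, was the lower, with Mki67 at 30.8 CPM against 47.6 CPM in replicate 2 and 55.7 CPM in sham, and Mcm3 at 17.1 CPM against 24.3 and 26.0 CPM. Replicate 1 was also the only female section of day 7. Its median was 53940 UMIs per spot, against 20904 in replicate 2 and 22934 in sham. The parts of the mitochondrial share, sex and depth in these values were not tested.

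Whether the genes track cycling tissue was described by Spearman's rho with Mki67 over the spots of each section (376 to 960 spots). Spots of a section share a library and differ in depth, so rho is given as a description. The mean rho over the 5 sections lay between −0.004 (Cdkn1b, SD 0.029) and 0.046 (Cdk4, SD 0.053). The medians of all genes were 0.016, 0.021, 0.010, 0.029 and 0.015 in the 5 sections. Genes that act in S phase and mitosis gave means from 0.046 for Mcm2 to 0.16 for Top2a and 0.16 for Cdk1, the mitotic kinase, and were above 0 in 5 of 5 sections.

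Cdk4 was at −0.022 (sham) and 0.082 (MI) at day 3 and at −0.002 (sham) and 0.090 and 0.079 (MI) at day 7. The sham values were near 0 and the MI values above it. In CM1-dominant spots alone the groups overlapped, with sham day 3 (0.033) above replicate 1 of MI day 7 (0.025). With each spot averaged with its nearest neighbours, the sham sections were also above 0, at 0.13 and 0.16, and the MI sections at 0.29, 0.21 and 0.21. Ccnd1 was the only one of the 9 above 0 in every section, at 0.087, 0.007, 0.029, 0.004 and 0.042, and the values of 0.007 and 0.004 were below the median gene of their section. Among spots with at least 5000 UMIs, a limit chosen after seeing the data, none of the 9 was above 0 in every section. By Pearson's r of log2(CPM + 1), Ccnd1 was below 0 in the MI day 3 section (−0.011) and in replicate 1 of MI day 7 (−0.014), and Cdkn1a was the gene above 0 in all 5, at 0.091, 0.003, 0.025, 0.096 and 0.031. Cdkn1a had a mean of 0.037 (SD 0.043) and Meis1 of −0.001 (SD 0.050), with Meis1 below 0 in both day 3 sections and sham day 7 and above 0 in the MI day 7 sections. Averaging each spot with its nearest neighbours raised the mean to 0.20 for Cdk4, 0.14 for Cdkn1a and 0.11 for Ccnd1, each above 0 in 5 of 5 sections, and that of Cdk1 to 0.34. That averaging also raised the medians of all genes, to between 0.018 and 0.097.

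**Figure D4:**
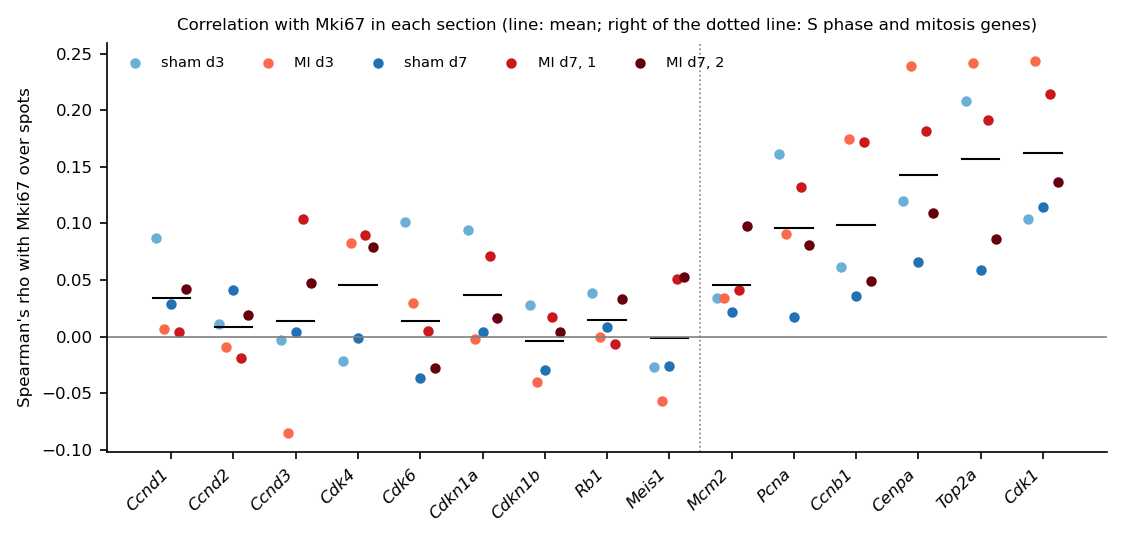
Spearman's rho with Mki67 over the spots of each section (vertical axis) for the 9 genes and, right of the dotted line, 6 genes of S phase and mitosis, 1 point per section and a line at the mean. The means of the 9 genes lie between −0.004 and 0.046, at or below that of Mcm2, while Top2a and Cdk1 have means of 0.16.

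Among themselves the 9 genes were weakly related over spots, with mean rho from −0.015 (Ccnd3 with Cdkn1a) to 0.064 (Cdkn1a with Cdkn1b). Cdk4 with Ccnd2 (0.049) and with Ccnd3 (0.051), and Cdkn1b with Meis1 (0.032), were above 0 in 5 of 5 sections, as were the inhibitor genes with each other. Moran's I, which is near 0 for a gene with no spatial order and rises where neighbouring spots resemble each other, was of the 9 genes highest for Ccnd2, in MI day 7 replicate 1 (0.16, above 94.4% of 7580 genes) and the MI day 3 section (0.15, above 86.6%). Ccnd2 was at 0.053 in MI day 7 replicate 2 and at 0.049 and 0.030 in the sham sections. Cdk4 was at 0.024 and 0.026 in sham tissue and at 0.10, 0.13 and 0.11 after MI. The median over all genes was also lower in sham tissue (0.007 and 0.009) than after MI (0.031, 0.022 and 0.019). Meis1 lay between −0.022 and 0.023 in all sections.

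The genes most like each of the 9 over spots, by mean rho over the 5 sections among 7579 genes with at least 10 CPM in every section, were as follows. Cdk4 was closest to Tmsb10 (0.20) and Sparc (0.20), the latter a matrix protein gene. Ccnd3 was closest to Igf2 (0.14), a fetal growth factor gene, and Tmsb10 (0.13). Ccnd2 was close to Nppa (0.13), which encodes atrial natriuretic peptide, and Ccnd1 was closest to Cav1 (0.12) and Fabp4 (0.11), genes of capillary endothelium. Cdkn1b was closest to Actb (0.11) and Ccdc12 (0.082), and Cdkn1a to Sparc (0.097) and Tubb5 (0.090). Cdk6 (Poldip3, 0.086, and Kank1, 0.074), Rb1 (Lrch4, 0.075, and Rnf34, 0.074) and Meis1 (Mettl17, 0.079, and Fbn2, 0.076) had lower highest values. The median rho of the 9 genes with all others was between 0.007 and 0.023.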

How the data were processed

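Visium data of 5 heart sections were used. The authors aligned reads with Space Ranger to mm10 and deposited, for the sham day 3 section, raw UMI counts per gene and spot and, for the other 4 sections, whole-number corrected counts from sctransform, treated here as a score since they are not raw counts. The authors also deposited 11 cell type scores per spot, a fraction each, from label transfer. Depths came from raw UMI totals listed with the spots and ranged from 11396022 to 37492530 per section.

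Each spot was scaled to CPM over 13711 shared genes and averaged over spots, so a section is 1 replicate. Group differences were tested with limma 3.58.1 (R 4.3.3) on log2(mean CPM + 1) with an intensity trend, over genes with at least 1 CPM in 2 columns, with Benjamini-Hochberg adjustment over all genes and a threshold of 0.05. No count model was used, since only 1 table holds raw counts. The sham day 3 table was also corrected with sctransform 0.4.2 as an alternative. Class comparisons used sections with at least 20 spots of both classes. All 9 genes are named, with the 4 genes of each list with the smallest p for the day and CM4 comparisons and the 2 genes most like each of the 9. Some results that this rule names are not reported here. The lists were fixed by hand, and genes and lists were chosen with earlier results of these data known. One gene may appear in 2 lists. P-values rest on the spread between these sections and on a variance trend that limma shares over all genes. The day fit and the MI fit across days leave 2 residual degrees of freedom, and most groups have a single section. Scripts ran on Python 3.11.15 with numpy 2.4.6, scipy 1.17.1 and pandas 2.3.3, and the fits were tested on simulated data.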

Additional observations from a re-analysis of the deposited data

How the results depend on the processing

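Of the 9 genes, the number called between days rose from 0 to 5 with sex as a covariate and ran from 0 to 1 when single sections were left out. In FB-dominant spots it dropped from 3 to 0 under median-of-ratios scaling and to 1 without mitochondrial and haemoglobin genes, and ran from 1 to 3 when single sections were left out. In EC-dominant spots it ran from 0 to 1. The number of the 9 genes above 0 with Mki67 in every section was 1 over all spots, 0 in CM1-dominant spots, 3 with neighbours averaged and 0 among spots with at least 5000 UMIs, an alternative chosen after seeing the data. The day difference of Ccnd1 turned to 0.18 under median-of-ratios scaling and 0.053 without mitochondrial and haemoglobin genes, and ran from −0.12 to 0.15 when single sections were left out. That of Ccnd2 turned to 0.024 under median-of-ratios scaling. The cause was not tested. Counts of the 9 genes called between MI and sham across days, at day 7, in CM4- and Macrophage-dominant spots and for the CM4 difference stayed at 0 in the alternatives run.

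Over all genes, calls between days ran from 32 (without MI day 7 replicate 2) to 2280 (sex as covariate) around 77, between MI and sham across days from 0 (without MI day 7 replicate 2) to 366 (without sham day 7) around 1, and at day 7 from 0 (median-of-ratios scaling) to 87 (summed values) around 30. Calls ran from 63 to 300 around 153 in CM4-, from 2165 to 3636 around 3612 in FB-, from 90 to 352 around 320 in EC-, from 1066 to 1680 around 1617 in EndoEC- and from 0 to 151 around 9 in Macrophage-dominant spots. Median-of-ratios scaling changed the split of higher and lower calls from 3154 and 458 to 1446 and 1513 in FB-, from 305 and 15 to 58 and 110 in EC- and from 1283 and 334 to 752 and 837 in EndoEC-dominant spots, and between days from 32 and 45 to 131 and 62. The class comparisons were paired by section throughout. For the day and MI comparisons, no paired analysis was possible because sections of different days and operations came from different animals. Leaving out either MI day 7 section left no residual degree of freedom for the day 7 test, and with other sections left out a lone section is taken to vary as the rest. Rb1, Cdk6, Meis1 and the inhibitor genes had few UMIs or corrected counts per spot, which limits values per class and spot.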
